A study of Mus musculus with 4 samples.

Results

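The genes described here mark the primed epiblast and the tissues it forms at gastrulation, and they were read in mouse embryonic stem cells (ESCs) without Prdm14. Members were chosen by gene symbol: 29 genes, 11 of the epiblast and 18 of the primitive streak, mesoderm and their patterning, among 22180 genes with a probe set of their own. Of the 29, 28 had such a probe set. T, the Brachyury gene of the primitive streak, had none named for it in the platform annotation and was not analysed here. The study asked, as far as its labels tell, whether PRDM14 orthologues act in cells that lack their own.

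Total RNA was measured on 4 arrays of 1 strip, with 1 array for each group. All groups share the Prdm14 knockout and growth on STO feeder cells, a mouse fibroblast line, in medium with leukemia inhibitory factor and a pair of inhibitors known as 2i. The cells carried a sea urchin pair, PRDM14 and CBFA2T (below, the CBFA2T array), sea urchin PRDM14 alone, mouse PRDM14, or an empty vector. The labels give neither clone numbers nor the promoter of the introduced genes. With 1 array per group, no value has a replicate error, no test could be made and no p-value is given. Prdm14 itself read 5.53 on the CBFA2T array, 5.77 with sea urchin PRDM14, 5.57 with mouse PRDM14 and 5.71 with the empty vector, on the log2 scale, so its probe set did not set the arrays apart, and each group name means the array so labelled. Of 5 core stem cell markers, Pou5f1 (6.51 to 6.61), Sox2 (7.74 to 7.82) and Sall4 (6.77 to 6.81) differed little, while Dppa4 (5.86 to 6.28) and Utf1 (6.87 to 7.30) had ranges past 1.2-fold.

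In the embryo, the naive pluripotent epiblast passes through a formative state to a primed one, which is marked by transcription factors such as Otx2 and Pou3f1. Wnt, Nodal and BMP signals then start gastrulation, when cells of the posterior epiblast switch on T-box and homeobox genes, leave the epithelium through the primitive streak and become mesoderm and endoderm. Medium with 2i and leukemia inhibitory factor holds ESCs in the naive state. PRDM14 is a DNA-binding protein of naive and germ cells that acts with co-repressors of the CBFA2T family.

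None of the 28 members differed by 1.5-fold or more between any of the 4 arrays, and few genes did. Of the 12042 genes past a filter on dim genes, 1.87% had such a range, so a list of this size would hold few or none. Over the 4 arrays the highest and lowest value of a member lay between 0.04 and 0.33 apart on the log2 scale, the widest being a 1.26-fold difference in Wnt3. A range under 0.1 was seen in 8 of the 28. Among the 24 members that passed the filter, the median range was 0.18, against 0.19 for the 12042 genes past it. Of the 24, 7 (29.2%) had a range of 1.2-fold or more, against 28.3% of all genes. A range under 0.1 was seen in 6 of these 24 (25%) and in 14.1% of all genes past the filter, a difference that was not tested. The filter asks that a gene reach 4.84 on at least 1 array, which is the median over the values of named probe sets.

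**Figure D1:**
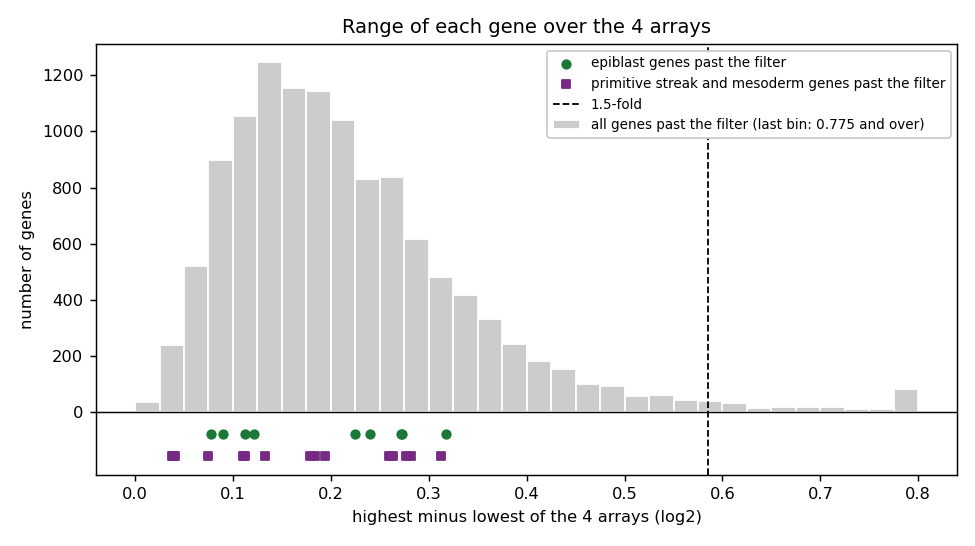
Range of each gene over the 4 arrays, as the highest minus the lowest log2 value (x axis), with the number of genes per bin of 12042 genes past the filter (y axis, grey bars). Green circles (epiblast genes) and purple squares (primitive streak and mesoderm genes) under the bars are the 24 members past the filter, all left of the dashed line at 1.5-fold and spread through the bulk of all genes.

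The filter touches the members unevenly. Of the 28, 21 reached 4.84 on every array, Eomes on the mouse PRDM14 and empty vector arrays alone, Foxc1 and Meox1 on the mouse PRDM14 array alone, and 4 (Wnt3, Sall2, Cer1 and Tbx6) on none. Values of these 7 lie close to the dim end, where background pulls a fold toward 1. The arrays carry no detection call, and levels of different probe sets cannot be ranked against one another. A low value therefore does not show that a gene was silent. In RNA of whole cultures, fewer cells of a type and less RNA per cell cannot be told apart, so a few cells leaving the naive state would not show as such.

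The transcription factors that define the primed epiblast hardly differed. Otx2, the homeobox factor that drives the exit from the naive state, read 4.87 on the CBFA2T array, 4.99 with sea urchin PRDM14, 4.90 with mouse PRDM14 and 4.98 with the empty vector. Pou3f1, a POU factor also called Oct6, read 5.42, 5.37, 5.46 and 5.44 in the same order of arrays. Foxd3, a forkhead factor required to maintain the epiblast, read 6.30, 6.31, 6.37 and 6.34. Ranges of 0.12, 0.09 and 0.08 put these 3 genes among the flatter ones, since 78.4%, 89.2% and 92.7% of all genes past the filter had a range at least as large.

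Sox3, a SoxB1 factor of epiblast and neural plate, was lowest with the empty vector. It read 6.95 on the CBFA2T array, 6.88 with sea urchin PRDM14 and 6.90 with mouse PRDM14, against 6.72 with the empty vector. The 3 PRDM14 arrays thus lay above the empty vector by 0.22, 0.16 and 0.18. They share that 1 empty vector array, so the 3 differences are not separate observations.

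The zinc finger genes Zic2 and Zic5 neighbour each other on chromosome 14, with 0 protein-coding genes between them. Zic2 read 6.14 on the CBFA2T array, 5.99 with sea urchin PRDM14, 5.90 with mouse PRDM14 and 6.06 with the empty vector. Zic5 read 5.38 on each sea urchin array, 5.10 with mouse PRDM14 and 5.20 with the empty vector. Both genes were lowest on the mouse PRDM14 array, by 0.16 and 0.10 relative to the empty vector. The 2 sea urchin arrays lay above mouse PRDM14 by 0.27 each for Zic5. A dimmer probe set of Zic5 went the other way, with -0.27 on the CBFA2T array and -0.19 with sea urchin PRDM14 relative to mouse PRDM14, and the mean of both probe sets left differences of -0.002 and 0.04.

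The Wnt ligands of the group gave its largest differences. Wnt8a, expressed in the posterior epiblast and streak, read 5.80 on the CBFA2T array, 5.86 with sea urchin PRDM14 and 5.65 with mouse PRDM14, against 5.96 with the empty vector. It was lowest with mouse PRDM14, by 0.32 relative to the empty vector, a size reached by 4.53% of all genes past the filter. Wnt3, without which mouse embryos form no primitive streak, read 4.59 on the CBFA2T array, 4.35 with sea urchin PRDM14, 4.37 with mouse PRDM14 and 4.26 with the empty vector. The CBFA2T array was the highest by 0.24 over sea urchin PRDM14 alone and by 0.33 over the empty vector, all below the filter value. Wnt3 is named outside the rule for naming genes, after its values were seen.

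Cdh2, which encodes N-cadherin, the cadherin that replaces E-cadherin in cells leaving the epiblast, was likewise highest on the CBFA2T array and lowest with the empty vector. It read 5.48 on the CBFA2T array, 5.33 with sea urchin PRDM14, 5.25 with mouse PRDM14 and 5.20 with the empty vector, and a dim second probe set (2.77 to 2.96) was highest with mouse PRDM14 instead. Pim2, a serine/threonine kinase gene, read 6.52, 6.57 and 6.53 on the PRDM14 arrays in that order and 6.63 with the empty vector. Sall2, a spalt zinc finger gene, stayed between 4.73 and 4.81, below the filter.

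**Figure D2:**
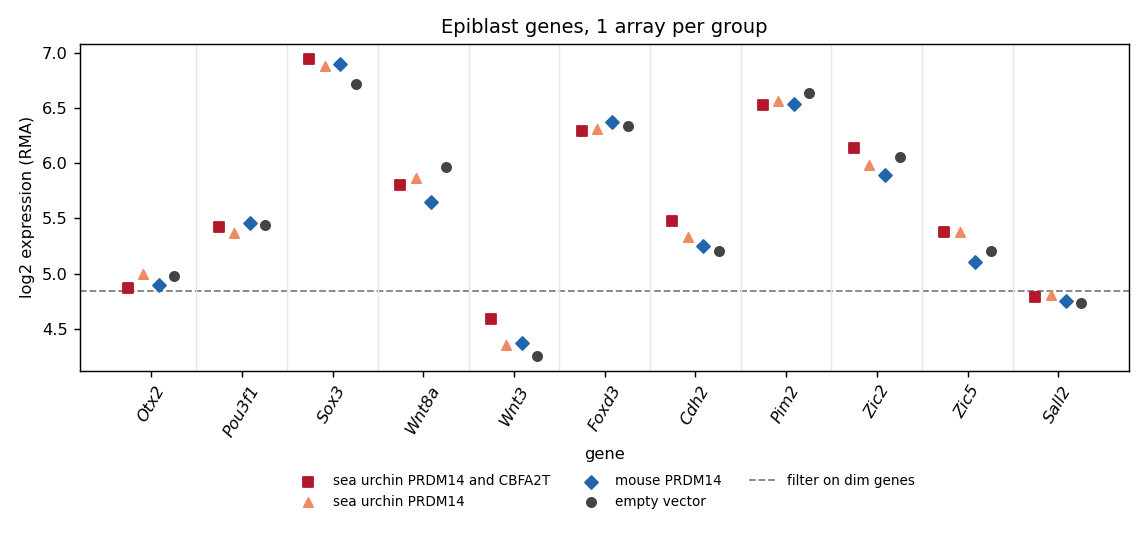
Log2 expression (y axis) of the 11 epiblast genes (x axis), with 1 symbol per array: red squares for sea urchin PRDM14 and CBFA2T, orange triangles for sea urchin PRDM14, blue diamonds for mouse PRDM14 and dark circles for the empty vector. The 4 symbols of a gene lie close together throughout, Wnt3 (4.26 to 4.59) and Wnt8a (5.65 to 5.96) being the widest, and the dashed line is the filter value of 4.84.

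Promoter windows of the members were searched for motifs, and a link between motifs and values was not tested. The windows searched are the 250 bases before each start in RefSeq (GRCm38.p6), on both strands, for 20 members with 24 windows among 32851 windows of that length. The motifs were picked with the values known. The LEF/TCF motif CTTTGAT, bound by the factors that carry Wnt signals, lay in 3 windows, of Mesp1, Msgn1 and Pim2, and in 3.21% of all windows. The POU octamer ATTTGCAT lay in 2 windows, of Evx1 and Pim2, and in 1.6% of all windows. The T-box motif AGGTGTGA (1.12% of all windows) and the PRDM14 motif GGTCTCTAA (0.24%) matched no member's window, which says only that these letters are not there. The 3 windows with a LEF/TCF match are printed 5′ to 3′ along the gene's strand, with matches to CTTTGAT or its reverse complement ATCAAAG in capitals, and for Pim2 also ATTTGCAT and its reverse complement ATGCAAAT.
Mesp1, chr7:79793591-79793840, minus strand: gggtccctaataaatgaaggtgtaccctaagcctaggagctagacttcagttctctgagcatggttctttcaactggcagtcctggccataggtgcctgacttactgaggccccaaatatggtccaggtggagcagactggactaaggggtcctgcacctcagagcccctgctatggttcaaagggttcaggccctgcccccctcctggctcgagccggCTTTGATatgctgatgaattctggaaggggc
Msgn1, chr12:11208949-11209198, minus strand: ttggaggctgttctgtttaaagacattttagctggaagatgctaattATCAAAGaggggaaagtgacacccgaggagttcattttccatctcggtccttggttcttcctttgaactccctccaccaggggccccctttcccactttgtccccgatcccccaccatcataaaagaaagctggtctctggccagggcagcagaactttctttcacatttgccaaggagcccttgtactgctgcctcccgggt
Pim2, chrX:7878056-7878305, plus strand: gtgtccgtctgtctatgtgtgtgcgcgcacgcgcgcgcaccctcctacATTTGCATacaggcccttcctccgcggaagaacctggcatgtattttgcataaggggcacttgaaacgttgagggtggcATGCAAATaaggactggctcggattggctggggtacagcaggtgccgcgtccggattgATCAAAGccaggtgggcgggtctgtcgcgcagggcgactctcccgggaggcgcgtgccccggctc
The match of Mesp1 lies 31 to 25 bases before the start, that of Msgn1 203 to 197 and that of Pim2 65 to 59. The values of these genes on the 4 arrays stand above for Pim2 and below for Mesp1 and Msgn1.

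Eomes and Mixl1 were both lower on the sea urchin arrays than on the other arrays. The share of all genes with this order was not counted. Eomes, a T-box factor needed for definitive endoderm and for the exit of mesoderm from the streak, read 4.76 on the CBFA2T array and 4.73 with sea urchin PRDM14, against 4.96 with mouse PRDM14 and 4.99 with the empty vector. Mixl1, a homeobox factor of mesendoderm, read 4.99 and 4.97 on the sea urchin arrays in the same order, against 5.25 with mouse PRDM14 and 5.12 with the empty vector. The gaps between arrays were small in both genes. For Mixl1 the mouse PRDM14 array lay 0.13 above the empty vector, about as far as the empty vector lay above the sea urchin arrays. The differences from the empty vector were -0.23 and -0.26 for Eomes and -0.12 and -0.14 for Mixl1, and a difference of 0.26 or more was reached by 8.78% of all genes between the sea urchin PRDM14 and empty vector arrays. Eomes passed the filter through the mouse PRDM14 and empty vector arrays alone.

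The organizer genes did not share this. Gsc, the Goosecoid homeobox gene of the anterior streak, read 6.81 on the CBFA2T array, 6.92 with sea urchin PRDM14, 6.74 with mouse PRDM14 and 6.78 with the empty vector. Lhx1, a LIM homeobox gene of head organizer tissue, read 5.44, 5.50, 5.52 and 5.47 in that order, and a probe set it shares with another gene was not used. Cer1, which encodes a secreted antagonist of Nodal and BMP, stayed between 3.75 and 3.82, below the filter. Gsc was thus highest with sea urchin PRDM14, where Eomes was lowest.

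The smallest ranges of all members belonged to Mesp1, Mesp2 and Hoxb1. Mesp1, a bHLH factor of early cardiac mesoderm, read 5.34 on the CBFA2T array and 5.37 on each of the other three. Its neighbour Mesp2 on chromosome 7, a bHLH factor of somite segmentation, read 5.79 on each sea urchin array, 5.77 with mouse PRDM14 and 5.81 with the empty vector. Hoxb1, an anterior Hox gene first switched on in the posterior streak, read 6.43, 6.42, 6.44 and 6.46 on the CBFA2T, sea urchin PRDM14, mouse PRDM14 and empty vector arrays. At least 98.6% of all genes past the filter had a range as large as those of Mesp1, Mesp2 and Hoxb1.

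Msgn1, a bHLH factor of presomitic mesoderm whose gene is known as a target of Tbx6 and Wnt signals, was highest with mouse PRDM14. It read 5.59 on the CBFA2T array, 5.60 with sea urchin PRDM14 and 5.72 with mouse PRDM14, against 5.54 with the empty vector. Tbx6, a T-box factor of paraxial mesoderm, read 4.36 on the CBFA2T array, 4.48 with sea urchin PRDM14 and 4.42 with mouse PRDM14, against 4.54 with the empty vector, below the filter throughout. The order of the arrays thus differed between Msgn1 and Tbx6. Evx1, a homeobox gene of the posterior streak, read 5.49, 5.62, 5.60 and 5.52 on the CBFA2T, sea urchin PRDM14, mouse PRDM14 and empty vector arrays. Meox1, a homeobox gene of somites, read 4.76, 4.69, 4.88 and 4.76 in that order, and reached the filter with mouse PRDM14 alone.

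The forkhead genes moved little and not as one. Foxc1, which acts with Foxc2 in paraxial mesoderm and vessels, read 4.78 on the CBFA2T array, 4.82 with sea urchin PRDM14 and 4.96 with mouse PRDM14, against 4.68 with the empty vector. The mouse PRDM14 array was higher by 0.28, but Foxc1 passed the filter through that array alone. Foxc2 read 5.68, 5.64 and 5.62 on those PRDM14 arrays and 5.57 with the empty vector. Foxf1, a gene of lateral and extraembryonic mesoderm that lies near Foxc2 on chromosome 8 with 1 protein-coding gene between, read 6.46, 6.48 and 6.38 there and 6.49 with the empty vector. Foxc2 was lowest and Foxf1 highest with the empty vector.

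Kdr and Snai1 were highest with sea urchin PRDM14. Kdr, the receptor for vascular endothelial growth factor on blood and vessel progenitors, read 5.03 on the CBFA2T array and 5.35 with sea urchin PRDM14, against 5.20 with mouse PRDM14 and 5.14 with the empty vector. Its CBFA2T array lay 0.31 below sea urchin PRDM14 alone, a size reached by 4.4% of all genes past the filter, and the mouse PRDM14 and empty vector values lay between these 2 arrays. Snai1, the Snail repressor of E-cadherin in cells leaving the epithelium, read 6.49, 6.65, 6.39 and 6.54 on the CBFA2T, sea urchin PRDM14, mouse PRDM14 and empty vector arrays. Snai1 was lowest with mouse PRDM14, 0.26 below sea urchin PRDM14.

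**Figure D3:**
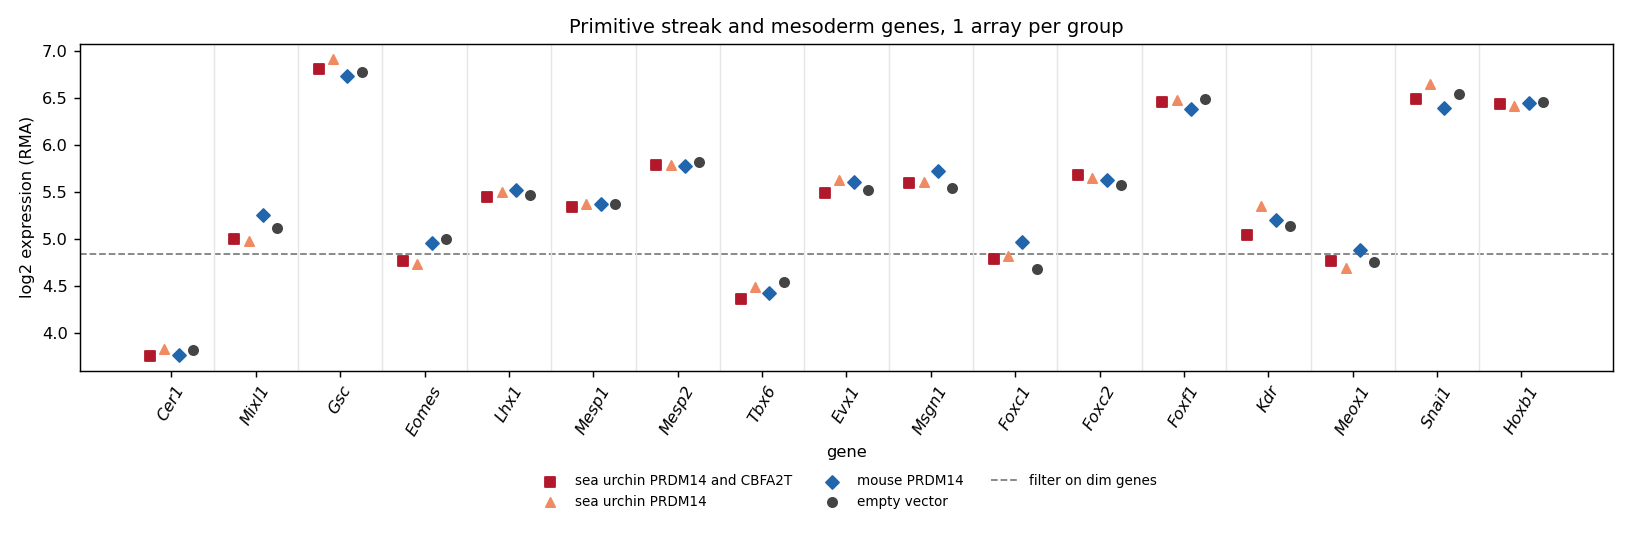
Log2 expression (y axis) of the 17 primitive streak and mesoderm genes with a probe set (x axis), 1 symbol per array: red squares for sea urchin PRDM14 and CBFA2T, orange triangles for sea urchin PRDM14, blue diamonds for mouse PRDM14, dark circles for the empty vector. Eomes and Mixl1 have both sea urchin symbols below the other two, Kdr has its widest gap between the sea urchin arrays (5.03 and 5.35), and Mesp1, Mesp2 and Hoxb1 are flat; the dashed line is the filter value of 4.84.

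Cdh2, Snai1, Kdr and the Fox genes are also active in fibroblasts or vessels, and the cultures held fibroblast feeder cells. Of 18 fibroblast markers, 12 passed the filter, and their mean log2 level was 6.07 on the CBFA2T array, 6.10 with sea urchin PRDM14, 6.09 with mouse PRDM14 and 6.10 with the empty vector. On the CBFA2T array, 3 of the 12 lay above sea urchin PRDM14 alone and 9 below (median -0.05), beside 49.9% of all genes above. Against the empty vector, 5 of the 12 lay above on each PRDM14 array, beside 48.4% to 51.6% of all genes. Against mouse PRDM14, 6 of the 12 lay above on each sea urchin array, beside 53.4% and 52.9% of all genes. Dcn, Lum, Postn, Twist2 and S100a4 were below the filter on every array and Fbn1 had no probe set of its own. None of the 12 was 1.5-fold apart between any 2 arrays, beside 1.87% of all genes past the filter. Their part in the members' values was not tested.

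With mouse PRDM14 against the empty vector, 0 of 9 epiblast genes and 0 of 15 streak and mesoderm genes past the filter were 2-fold apart (0.083% of all 12042 genes were) and 0 were 1.5-fold apart (0.457% of all). The epiblast genes had a median difference of -0.09, with 4 of 9 above 0, and the streak and mesoderm genes one of 0.05, with 8 of 15 above 0 and Mesp1 at 0. All genes had a median of -0.01, with 48.4% above 0. Over the 11 epiblast genes with a probe set, without the filter, the median was 0.02, so its direction depends on Wnt3 and Sall2 being left out. Over the 17 streak and mesoderm genes without the filter, the median was 0.00, with 8 above 0. Foxc1 and Meox1, both above 0, passed the filter through the mouse PRDM14 array alone. At 1.2-fold, a threshold chosen after the values were seen, Wnt8a (-0.32) was lower and Foxc1 (0.28) higher, which is 2 of 24 members beside 8.35% of all genes.

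With sea urchin PRDM14 against the empty vector, again 0 of 24 members were 2-fold (0.0332% of all genes) or 1.5-fold apart (0.498%), and 0 were 1.2-fold apart (8.42%). The medians were -0.03 for epiblast genes (4 of 9 above 0) and 0.03 for streak and mesoderm genes (9 of 15 above 0), against 0.01 for all genes. Without the filter the epiblast median was 0.01. Eomes (-0.26) and Kdr (0.21) marked the ends, and Eomes passed the filter through the mouse PRDM14 and empty vector arrays alone.

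The CBFA2T array against the empty vector gave 0 of 24 members at 2-fold (0.208% of all genes) and at 1.5-fold (0.822%). Of the epiblast genes 4 of 9 lay above 0 (median -0.02), and of the streak and mesoderm genes 5 of 15 (median -0.03), against 51.6% of all genes and a median of 0.01. Without the filter the epiblast median was 0.06, with 6 of 11 above 0. Eomes, below 0 here, passed the filter through the mouse PRDM14 and empty vector arrays alone. Cdh2 (0.27) was the 1 member past 1.2-fold, beside 10.7% of all genes. With the mean of its probe sets the Cdh2 difference was 0.19, under 1.2-fold.

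CBFA2T added to sea urchin PRDM14 asks what the co-repressor brings to these genes. No member was 2-fold apart (0 of 24, beside 0.183% of all genes) or 1.5-fold apart (0 of 24, beside 0.515%). The medians were -0.00 for epiblast genes (4 of 9 above 0) and -0.02 for streak and mesoderm genes (6 of 15 above 0), against -0.00 for all genes. Kdr (-0.31) was the 1 member past 1.2-fold, beside 7.62% of all genes. The SD of the 24 differences was 0.10, against 0.18 across all genes. That SD over all genes holds the few genes with large differences.

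Against mouse PRDM14, sea urchin PRDM14 had 0 of 24 members 2-fold apart (0.0581% of all genes) and 0 at 1.5-fold (0.515%). The epiblast median was 0.08 (6 of 9 above 0) and the streak and mesoderm median 0.01 (8 of 15 above 0), against 0.01 for all genes. Zic5 (0.27) and Snai1 (0.26) were higher and Mixl1 (-0.28) lower by 1.2-fold or more, 3 of 24 beside 9.52% of all genes. The CBFA2T array against mouse PRDM14 likewise had 0 of 24 members at 2-fold (0.183%) and at 1.5-fold (0.739%). There the epiblast median was 0.05 (5 of 9 above 0) and that of streak and mesoderm genes -0.07 (5 of 15 above 0), against 0.01 for all genes. With a stricter filter, which kept 7 streak and mesoderm genes, their median was 0.06. Without the filter it was -0.06, with 5 of 17 above 0, and for sea urchin PRDM14 against mouse PRDM14 it was 0.01, with 10 of 17 above 0. Foxc1, Meox1 and Eomes lay below 0 in both comparisons with mouse PRDM14. Foxc1 and Meox1 passed the filter through the mouse PRDM14 array alone, and Eomes through the mouse PRDM14 and empty vector arrays alone. Zic5 (0.27) was the 1 member past 1.2-fold, beside 10.1% of all genes. With the mean of its probe sets, the Zic5 difference from mouse PRDM14 was 0.04 with sea urchin PRDM14 and -0.002 on the CBFA2T array, both under 1.2-fold.

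**Figure D4:**
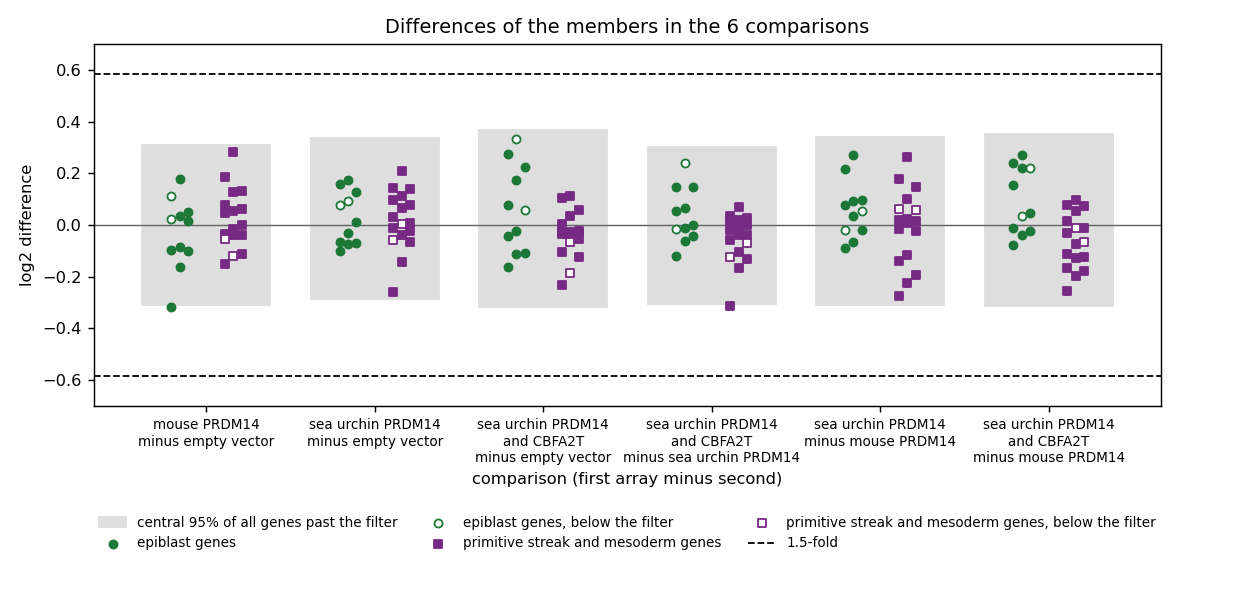
Log2 difference (y axis) of each member in the 6 comparisons (x axis, first array minus second), with epiblast genes as green circles and primitive streak and mesoderm genes as purple squares, open where the gene is below the filter. Grey boxes span the central 95% of all genes past the filter, and no member reaches the dashed lines at 1.5-fold; Wnt8a with mouse PRDM14 (-0.32) and Kdr with CBFA2T added (-0.31) lie at or just past a box's edge.

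Only pairs of comparisons without a common array can be set against each other. For mouse PRDM14 minus empty vector and CBFA2T array minus sea urchin PRDM14, 13 of the 24 members past the filter had the same sign, 7 of 9 epiblast genes and 6 of 15 streak and mesoderm genes, beside 52.1% of all genes. The other two such pairings gave 13 and 11 of 24, beside 54.5% and 52.3% of all genes. Across the 4 arrays, members had their highest value on the CBFA2T array in 4 cases, with sea urchin PRDM14 in 7, with mouse PRDM14 in 7 and with the empty vector in 6. Of all genes past the filter, 27.3%, 25.1%, 23.2% and 24.4% did. Foxc1 and Meox1, among the 7 members highest with mouse PRDM14, passed the filter through that array alone. Of the members past the filter, 3 (Lhx1, Meox1 and Hoxb1) lie on chromosome 11, whose 1067 genes had medians of 0.07 on the CBFA2T array and 0.06 with sea urchin PRDM14 against the empty vector.

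Some signal genes upstream of gastrulation differed by more than any member. On a list of 28 further signal and streak genes, 19 passed the filter, and 3 of them, Bmp4, Tdgf1 and Lefty2, were 1.5-fold or more apart between 2 arrays, beside 1.87% of all genes. Bmp4, the BMP ligand that induces streak and mesoderm from the extraembryonic side, read 5.74 on the CBFA2T array, 5.69 with sea urchin PRDM14, 6.89 with mouse PRDM14 and 6.10 with the empty vector. Its sea urchin arrays differed from mouse PRDM14 by -1.145 and -1.196, past 2-fold. Tdgf1, the Nodal co-receptor also called Cripto, read 7.58 on the CBFA2T array, 8.74 with sea urchin PRDM14, 8.42 with mouse PRDM14 and 8.25 with the empty vector. The CBFA2T array was thus lowest, by 1.16 relative to sea urchin PRDM14 alone, past 2-fold. Lefty2, a Nodal antagonist and target, read 6.46, 7.00, 6.08 and 6.54 in that order. No other gene of that list passed 1.5-fold between any 2 arrays.

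Of other genes of these pathways, Lefty1, Nodal, Axin2 and Sp5 had ranges past 1.2-fold but under 1.5-fold. Lefty1, a Nodal antagonist and target like Lefty2, read 6.43 on the CBFA2T array, 6.92 with sea urchin PRDM14 and 6.36 with mouse PRDM14, against 6.59 with the empty vector. The Nodal gene read 5.47 on the CBFA2T array, 5.61 with sea urchin PRDM14 and 5.57 with mouse PRDM14, against 5.89 with the empty vector. Axin2, a direct Wnt target, read 7.18 and 7.20 on the sea urchin arrays and 6.96 with mouse PRDM14, against 6.85 with the empty vector, and the Wnt target Sp5 read 5.45, 5.38 and 5.33 on those arrays against 5.13. All 3 PRDM14 arrays lay below the empty vector for Nodal and above it for Axin2 and Sp5, and they share that array. Cdx1 (-0.10 and -0.22) and Cdx2 (-0.15 and -0.15) lay below the empty vector with sea urchin PRDM14 and on the CBFA2T array. Of the 19 signal and streak genes past the filter, 13 lay above the empty vector with mouse PRDM14. With sea urchin PRDM14 11 did and on the CBFA2T array 9, beside 48.4%, 51.6% and 51.6% of all genes. Lefty1, Nodal, Axin2, Sp5, Cdx1 and Cdx2 were picked after their values were seen. Whether the streak genes and these signals are linked in these cells was not tested.

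Among 18 further formative and primed epiblast genes, 16 passed the filter and 1 was 1.5-fold apart between 2 arrays, beside 1.87% of all genes. Dnmt3b, the DNA methyltransferase gene that rises in the epiblast, read 6.34 on the CBFA2T array, 6.56 with sea urchin PRDM14, 5.96 with mouse PRDM14 and 6.42 with the empty vector. Sea urchin PRDM14 exceeded mouse PRDM14 by 0.59, just past 1.5-fold, and by 0.58 after cyclic loess, just under it. Fgf5, the classic marker of primed epiblast, read 4.69, 4.77, 4.77 and 4.86 in the order used for Dnmt3b, and passed the filter through the empty vector array alone. On the CBFA2T array, 4 of these 16 genes lay above the empty vector, with a median difference of -0.07, beside 51.6% of all genes above it. Above sea urchin PRDM14 alone lay 3 of the 16, with a median of -0.10, beside 49.9% of all genes.

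**Figure D5:**
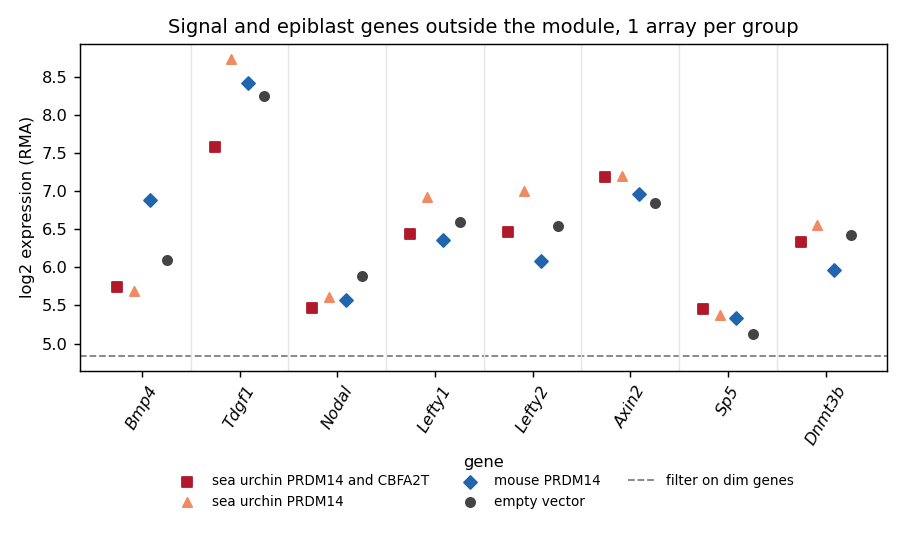
Log2 expression (y axis) of 8 signal and epiblast genes outside the module (x axis), 1 symbol per array: red squares for sea urchin PRDM14 and CBFA2T, orange triangles for sea urchin PRDM14, blue diamonds for mouse PRDM14, dark circles for the empty vector. Bmp4 stands out on the mouse PRDM14 array (6.89) and Tdgf1 on the CBFA2T array (7.58), wider gaps than any member shows; the dashed line is the filter value of 4.84.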

How the data were processed

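The deposited values are log2 expression per probe set. The submitters' processing notes name RMA, with no version, as the authors' tool; it corrects background, equalises the arrays and summarises probes. The annotation's build, and which arrays it was run on, were not given in the sources used here. Medians of the arrays were 4.54 to 4.55, so these values cannot show a shift of most genes at once. The number of arrays, 1 per group, limits the precision.

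Of 41345 probe sets, 23521 were paired with 1 gene, 1814 with several and 16010 with none. The brightest probe set stood for a gene, and 12042 of 22180 genes reached 4.84 on at least 1 array. Calls were made by size, at 2-fold and 1.5-fold, in 6 comparisons. Members past the filter are given with every array's value; of those below it, Sall2 and Cer1 are given by range, and Wnt3 and Tbx6 with their values, after these were seen. Genes outside the module are named from fixed lists when past 1.5-fold, or as markers of a cell type. Lefty1, Nodal, Axin2, Sp5, Cdx1 and Cdx2 are named outside this rule, and Fgf5 as the classic marker of primed epiblast. Members and lists were chosen with earlier results of these data known. The 2-fold call alone was tested on simulated data, with changes larger than 2-fold. That test does not bear on the 1.5-fold and 1.2-fold calls or on smaller folds in dim genes. Python 3.11.15, pandas 2.3.3, R 4.3.3 and limma 3.58.1 were used. Alternatives were 1.5-fold and 1.2-fold thresholds, no filter, a filter at 5.65, cyclic loess, the mean of all probe sets, Cer1 moved to the epiblast genes, and leaving out chromosomes 11 and 16.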

Additional observations from a re-analysis of the deposited data

How the results depend on the processing

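No member passed 2-fold or 1.5-fold in any of the 6 comparisons. Of all genes past the filter, 0.374% and 1.87% had ranges that large over the 4 arrays. No member passed 2-fold under no filter, the stricter filter, cyclic loess, the mean of all probe sets, Cer1 moved, or leaving out chromosomes 11 and 16. At 1.2-fold, which was chosen after seeing the data, the counts were 1 epiblast gene each in the comparisons of the mouse PRDM14 array and the CBFA2T array with the empty vector, and 1 each for both sea urchin arrays against mouse PRDM14. Streak and mesoderm genes gave 1 for mouse PRDM14 against the empty vector, 1 for CBFA2T added and 2 for sea urchin PRDM14 against mouse PRDM14. The list medians are close to 0 and their sign is not settled: of 12, 4 changed sign when unfiltered, 2 under the stricter filter and 1 with the mean of all probe sets, and 0 with cyclic loess, with Cer1 moved or without chromosomes 11 and 16. A shift of 0.1 or more was seen in the epiblast median for mouse PRDM14 against the empty vector (0.016 with no filter) and in the streak and mesoderm median for the CBFA2T array against mouse PRDM14 (0.055 with the stricter filter, 7 genes), where each alternative keeps other members. Differences of single members moved by at most 0.02 with cyclic loess. With the mean of all probe sets, 6 differences, all of Cdh2 or Zic5, moved by 0.1 or more, the largest by 0.27. Cdh2 on the CBFA2T array against the empty vector then fell from 0.27 to 0.19, under 1.2-fold. Zic5 against mouse PRDM14 fell from 0.27 to 0.04 with sea urchin PRDM14 and from 0.27 to -0.002 on the CBFA2T array, also under 1.2-fold. The epiblast genes past the filter fell from 9 to 7. No paired analysis was possible because each group has 1 array. RMA values hold no depth or detection call, so small differences of dim genes were not resolvable here.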

Other observations

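Among markers of other fates of the epiblast, 1 was 1.5-fold apart between 2 arrays, beside 1.87% of all genes past the filter. Of 7 neural markers 6 passed the filter, and Olig2, a bHLH factor of motor neuron progenitors, read 4.71 on the CBFA2T array, 4.98 with sea urchin PRDM14, 4.31 with mouse PRDM14 and 4.73 with the empty vector. Its sea urchin PRDM14 value exceeded mouse PRDM14 by 0.67, past 1.5-fold, but Olig2 reached the filter value of 4.84 on the sea urchin PRDM14 array alone, where it was highest. Sox1, the earliest neural plate marker, read 4.85, 4.91 and 4.89 on the PRDM14 arrays in that order, against 5.24 with the empty vector, while Pax6, a neural homeobox gene, read 5.07, 4.96 and 5.02 there, against 4.93. Of the 6 neural markers, 1 lay above the empty vector on the CBFA2T array, 3 with sea urchin PRDM14 and 2 with mouse PRDM14, beside 51.6%, 51.6% and 48.4% of all genes. Sox1 and Pax6 were picked after their values were seen. Of 6 definitive endoderm markers 4 passed, and Sox17, Foxa2, Cxcr4 and Gata4 had ranges of 0.18, 0.13, 0.15 and 0.24, none of them 1.2-fold.

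Naive pluripotency markers had wider ranges. Their median range over 11 genes past the filter was 0.39, against 0.18 for the 24 members and 0.19 for all genes, and 8 of the 11 had a range of 1.2-fold or more, beside 28.3% of all genes. Tfcp2l1, a transcription factor of naive stem cells, read 7.21 on the CBFA2T array, 6.93 with sea urchin PRDM14, 7.60 with mouse PRDM14 and 7.35 with the empty vector. The naive markers were also brighter, with array means of 6.66 to 6.91 against 5.69 to 5.72 for the members, and dim values hold smaller folds. The 5 core stem cell markers had array means of 6.79 to 6.93 and a median range of 0.10, and 2 of the 5 had a range of 1.2-fold or more. The part of brightness in the ranges was not tested. The difference in range between the naive markers and the members was not tested, as each group has 1 array.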
